A study of Mus musculus with 6 samples.

Results

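Isolated CpGs are autosomal CpGs outside CpG islands with no other CpG within 35 bp on either side and with A or T as both neighbouring bases. Of 2998280 such CpGs in the mouse genome (GRCm38), 370009 had a read in at least 1 of the 6 libraries and 4564 had 5 or more reads in all 6. The 4562 of these with under 1000 reads in every library are the isolated CpGs described here, out of 4175106 distinct CpGs in the 6 files. They were compared with 238418 dense CpGs, which have 2 or more other CpGs within 35 bp and G or C on both sides, and with all 827722 autosomal CpGs outside CpG islands that met the same read minimum. None of these sets was chosen by methylation level.

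The libraries are reduced representation bisulfite sequencing (RRBS) of CD8+ T cells from lymph nodes of C57BL/6N mice, 2 libraries each of the genotypes wt (WT), hSTAT5B +/T (hSTAT5B) and hSTAT5B N642H +/T (hSTAT5BN642H). RRBS cuts DNA with MspI at CCGG, treats it with bisulfite, which converts unmethylated cytosine, and sequences the fragment ends, so each CpG gets a level, the percent of its reads that were methylated. Both transgenes encode human STAT5B, a transcription factor activated by cytokine receptors, without or with the substitution N642H, and are driven in blood-forming cells by the Vav1 promoter. The study describes T cells of 13-week-old mice, of which the hSTAT5BN642H animals were diseased, so genotype, disease and the number of past cell divisions cannot be told apart, and the cells were enriched with magnetic beads, not cloned or sorted to single cells.

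DNA methylation at a CpG is copied after each replication by DNMT1, which UHRF1 guides to the half-methylated site. Copying is known to be least complete at CpGs that stand alone between A or T bases, most of all in late-replicating, gene-poor parts of the genome, so the level at such CpGs is known to decline as cells divide. In RRBS these CpGs are few, because an isolated CpG cannot lie within 35 bp of a CCGG, which itself holds a CpG.

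The sequences of 9 isolated CpGs are shown, 35 bases on each side, so that the bare surroundings of the CpG can be read directly; the CpG and its A or T neighbours are in capitals, and each is given 5′ to 3′ on the forward strand of GRCm38. The first 4 lie in introns and the next 3 between genes, and they are among the CpGs with the lowest hSTAT5BN642H level relative to WT that a fixed rule picked; then come the CpG with the highest level relative to WT by the same rule and 1 of the most deeply read CpGs.
9630028H03Rik intron, chr2:135555825-135555896: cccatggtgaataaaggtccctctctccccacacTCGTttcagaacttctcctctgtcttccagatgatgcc
Hoxb5os intron, chr11:96302067-96302138: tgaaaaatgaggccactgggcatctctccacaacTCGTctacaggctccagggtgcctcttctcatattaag
Nr1i2 intron, chr16:38281058-38281129: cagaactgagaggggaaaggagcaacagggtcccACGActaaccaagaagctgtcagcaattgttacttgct
Mast4 intron, chr13:103182528-103182599: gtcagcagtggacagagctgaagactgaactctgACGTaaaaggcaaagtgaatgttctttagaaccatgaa
intergenic, chr16:89722564-89722635: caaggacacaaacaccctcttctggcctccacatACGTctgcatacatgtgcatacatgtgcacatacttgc
intergenic, chr4:128569069-128569140: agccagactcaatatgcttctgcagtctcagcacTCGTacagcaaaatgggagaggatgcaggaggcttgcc
intergenic, chr11:106299891-106299962: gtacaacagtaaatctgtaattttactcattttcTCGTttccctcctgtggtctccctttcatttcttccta
Fmnl3 intron, chr15:99334695-99334766: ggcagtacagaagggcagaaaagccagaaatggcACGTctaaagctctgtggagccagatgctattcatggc
Slc9a4 intron, chr1:40625544-40625615: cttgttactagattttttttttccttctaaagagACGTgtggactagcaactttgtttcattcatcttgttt

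Summed over CpGs, the read counts in the files came to 43291086 to 67007186 per library, a read being counted at each CpG it covers. Of these counts, 137908 to 197309 fell on the isolated CpGs, with a median of 20 to 29 reads per CpG. The deepest library was hSTAT5BN642H replicate 1. Among CpGs near CD8+ T cell genes, the 8 CpGs at Cd8b1, which encodes a CD8 chain, averaged 44.2% and 45.6% in WT, 23.9% and 29.4% in hSTAT5B, and 13.9% and 14.3% in hSTAT5BN642H, and Cd8a was at 65.7% in WT replicate 1 and at 29.8% to 42.6% in the other libraries. All 74 CpGs at the 5 CD8+ T cell genes averaged 75.9% and 66.7% in WT, 66.5% and 65.7% in hSTAT5B, and 62.5% and 62.4% in hSTAT5BN642H. The other 3 of these genes, Cd3e, Cd3d and Cd3g, mark all T cells, and at each of them the hSTAT5BN642H levels overlapped those of the other libraries. The mean of the 206 CpGs at 6 B cell genes, 155 of them at Pax5, lay between 58.6% and 60.3% in the 6 libraries. For the 89 at 2 CD4+ T cell genes it lay between 50.1% and 53.3%, and for the 175 at 6 myeloid genes between 72.5% and 74.0%. At the B cell gene Cd79b, hSTAT5BN642H was above all other libraries, at 50.1% and 46.7% against 46.4% or less. It was below them at Cd79a (26.6% and 26.3%, others 26.9% or more) and Blk (84.1% and 82.6%, others 85.3% or more). The myeloid gene Itgam was also lower, at 89.93% and 89.96% against 91.3% or more. At each other gene of these lists, the hSTAT5BN642H levels overlapped those of the other libraries. The part of cell makeup in the results was not tested.

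Isolated CpGs had a lower mean methylation level in both hSTAT5BN642H libraries than in any other library, and non-mutant hSTAT5B was close to WT. The mean level of the 4562 CpGs was 76.5% and 77.7% in WT, 76.9% and 77.2% in hSTAT5B, and 73.3% and 74.1% in hSTAT5BN642H. As group means these are 77.1% ± 0.844 in WT, 77.0% ± 0.157 in hSTAT5B and 73.7% ± 0.554 in hSTAT5BN642H (SD, n = 2 each). hSTAT5BN642H minus WT was -3.39 percentage points, with -4.37 to -2.40 over the 4 pairs of libraries, against a gap of -1.19 between the WT libraries. hSTAT5B minus WT was -0.0156 points, with pairs from -0.723 to 0.692. The exact permutation test of hSTAT5BN642H against the other 4 libraries, 2-sided, gave a difference of -3.38 points and p = 0.0667, the smallest that 2 against 4 libraries can give, and 0.361 after Benjamini-Hochberg adjustment over 13 mean levels tested. Tests of 2 against 4 libraries given below for place, gene density, flanking bases and a further set in TCGA are outside these 13 and unadjusted. For the contrasts of place and gene density, the 13 hold hSTAT5BN642H minus WT instead (exact permutation p = 0.333). The test of 2 against 2 libraries cannot go below p = 0.333 in its exact form, which was the value for hSTAT5BN642H minus WT. Nothing in the labels says that the libraries came from separate animals, so these p-values measure the spread between libraries only.

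Dense CpGs differed far less. Their mean level was 78.4% and 78.5% in WT, 78.8% and 78.7% in hSTAT5B, and 78.1% and 78.3% in hSTAT5BN642H, and hSTAT5BN642H minus WT was -0.238 points. This value was -0.135 without hSTAT5BN642H replicate 1 and -0.154 without WT replicate 2, and it turned to 0.0843 with pooled reads and to 0.140 without soft-masked repeat sequence. All 827722 tested CpGs together gave -0.727 points. The level of isolated minus dense CpGs in the same library was -1.92 and -0.893 points in WT, -1.89 and -1.58 in hSTAT5B, and -4.84 and -4.27 in hSTAT5BN642H, so the groups did not overlap in this difference either. Its value for hSTAT5BN642H against the other 4 libraries was -2.98 points (exact permutation p = 0.0667).

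**Figure D1:**
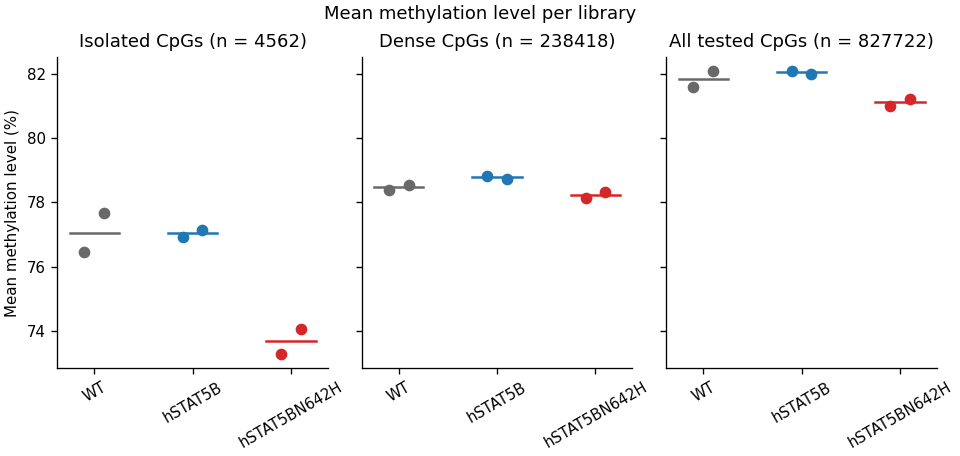
Mean methylation level (%) of isolated, dense and all tested CpGs in each library; a point is 1 library, a bar the mean of a genotype, and the axis does not start at 0. The hSTAT5BN642H libraries, at 73.3% and 74.1%, sit below the other 4 for isolated CpGs, while the dense CpGs lie between 78.1% and 78.8% in all 6.

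Fewer isolated CpGs were fully methylated in hSTAT5BN642H, and more were at partial levels. In WT, 26.3% and 25.9% of the isolated CpGs had every read methylated, and in hSTAT5B 26.6% and 29.8%, against 17.1% and 22.4% in hSTAT5BN642H. The median reads per isolated CpG were 29 and 23 in hSTAT5BN642H and 20 to 25 in the other libraries, and the part of read depth in this share was not tested. Dense CpGs also had fewer at 100%, with 28.6% and 36% in hSTAT5BN642H and 37.5% to 43.1% in the other libraries. Levels of 40 to under 60% were found for 8.13% and 6.99% of the CpGs in WT, 7.67% and 8.07% in hSTAT5B, and 10.1% and 9.32% in hSTAT5BN642H. The share under 20% lay between 8.02% and 8.70% in the 6 libraries.

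**Figure D2:**
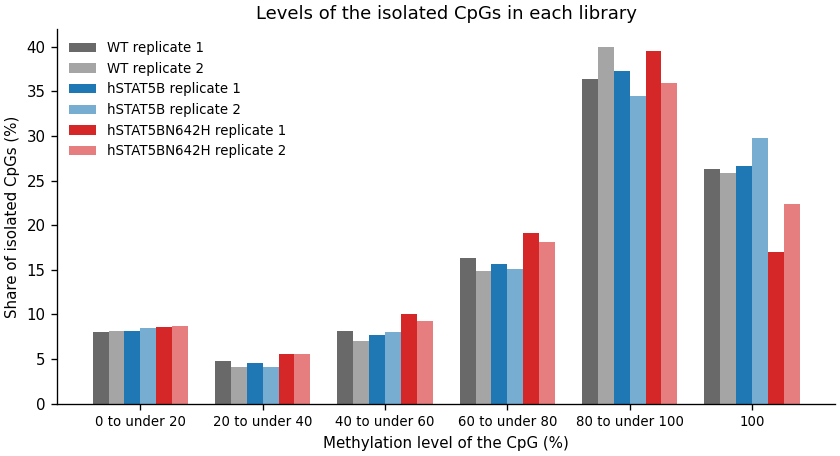
Share (%) of the 4562 isolated CpGs in each range of methylation level, with 1 bar per library coloured by genotype. The hSTAT5BN642H bars are the lowest at 100% (17.1% and 22.4%) and the highest from 20 to under 80%.

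Grouped by their mean level in hSTAT5B, which takes no part in the contrast of hSTAT5BN642H with WT, isolated CpGs at 50 to 80% differed most. hSTAT5BN642H minus WT was -5.96 points for the 938 isolated CpGs at 50 to 80%, -4.12 for 1509 at 80 to 95% and -1.79 for 1417 at 95 to 100%. The 335 at 20 to 50% gave -3.19 and the 363 under 20% gave -0.108. Dense CpGs in the same 5 ranges, in this order, gave -0.361, -0.670, -0.415, 1.06 and 0.794 points, each smaller in size than the isolated value of its range except the last.

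Both isolation and flanking bases went with the size of the difference. With A or T on both sides, hSTAT5BN642H minus WT was -3.39 points with no other CpG within 35 bp, -2.12 with 1 (16167 CpGs), -1.48 with 2 (12787), -0.694 with 3 (7681) and -0.206 with 4 or more (8308). With A or T on 1 side only, CpGs without a neighbour were at -1.94 points (15825 CpGs), and with G or C on both sides at -1.25 (191233). The level of CpGs without a neighbour, A or T minus G or C on both sides, was -11.4 and -10.9 points in WT, -11.4 and -11.1 in hSTAT5B, and -13.6 and -12.9 in hSTAT5BN642H, with no overlap (exact permutation p = 0.0667 for 2 against 4). The corresponding hSTAT5B minus WT values over the 15 combinations of flanks and neighbours lay between -0.0328 and 0.491 points. Position in the fragment was not held equal in these groups. CpGs without a neighbour lie in a CCGG, with C and G on their sides, or over 35 bp from one. Of the isolated CpGs 95.1%, but of all tested CpGs 10.6%, lay 36 to 50 bp from a CCGG. The part of position in these values was not tested.

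**Figure D3:**
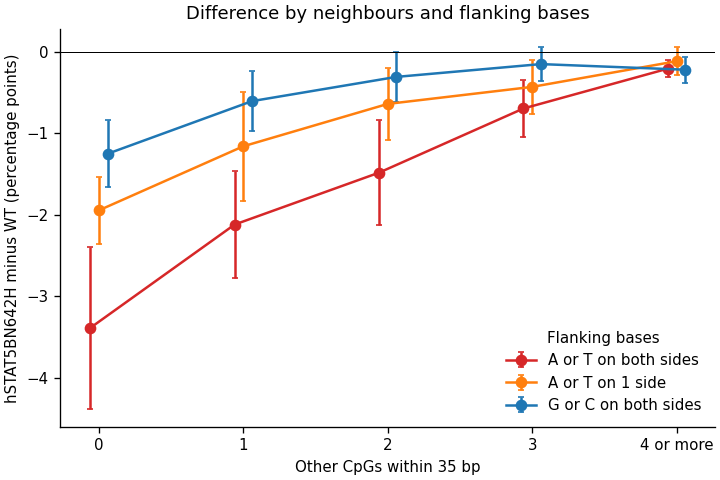
hSTAT5BN642H minus WT (percentage points of mean level) by the number of other CpGs within 35 bp, with a line for each kind of flanking bases; points are the difference of group means and bars run from the lowest to the highest of the 4 library pairs. The difference shrinks from -3.39 to -0.206 with A or T on both sides and from -1.25 to -0.219 with G or C on both sides. Distance from a CCGG was not held equal between the groups.

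Within the isolated CpGs, the exact flanks were ACGT in 1706, ACGA or its mirror TCGT in 2586, and TCGA in 270. hSTAT5BN642H minus WT was -3.06, -3.38 and -5.53 points. The TCGA group is unlike the others: 222 of the 223 isolated CpGs over 50 bp from a CCGG were in TCGA, and in TCGA the hSTAT5B libraries were also below WT, by a difference of -2.30 points. Without the TCGA group, hSTAT5BN642H minus WT was -3.25 points over 4292 CpGs and hSTAT5B minus WT 0.128.

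The position in the MspI fragment separates the isolated from the dense set, since 95.1% of isolated CpGs and 5.42% of dense CpGs lay 36 to 50 bp from a CCGG. Isolated CpGs 36 to 40, 41 to 45 and 46 to 50 bp from a CCGG gave hSTAT5BN642H minus WT of -3.07, -3.38 and -3.36 points, and dense CpGs at these distances -0.496, -0.0509 and -0.427.

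The choice of distance and reads moved the value but not its sign. The 195 isolated CpGs with no CpG within 50 bp, all of them in TCGA, gave -6.16 points, those with the nearest CpG at 36 to 50 bp -3.26, and CpGs just outside the limit, with the nearest at 26 to 35 bp, -2.68. CpGs just below the read minimum, with 3 or 4 reads in their shallowest library, gave -5.93 and -4.88 points; 47.5% and 34.5% of them were in TCGA. Those just above it, at 5 or 6 reads, gave -3.66 and -3.32.

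By place, isolated CpGs in gene bodies and between genes were both lower in hSTAT5BN642H. The 2589 in annotated genes (56.8%) had 77.0% and 78.0% in WT, 77.3% and 77.4% in hSTAT5B, and 74.0% and 74.7% in hSTAT5BN642H, a difference from WT of -3.15 points. The 1973 between genes had 75.7% and 77.2%, 76.5% and 76.9%, and 72.3% and 73.3%, a difference of -3.69. The gene body minus intergenic level was 1.28 and 0.750 points in WT, 0.809 and 0.487 in hSTAT5B, and 1.68 and 1.43 in hSTAT5BN642H, so hSTAT5BN642H was above the other 4 by 0.727 points (exact permutation p = 0.0667). This small contrast against WT, 0.545 points, turned to -0.809 when no CpG was allowed within 50 bp, which left 195 isolated CpGs, all in TCGA. It was 0.282 without WT replicate 2, 1.01 with 20 or more reads and 1.19 with pooled reads.

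Isolated CpGs near a transcription start differed less from WT than those far away. The 878 isolated CpGs within 2 kb of a start had a lower level in all libraries, 65.0% and 65.8% in WT, and a difference of -1.36 points. The 3480 at 2 to 100 kb gave -3.81 and the 204 farther away -4.80. Within genes, 457 exonic CpGs gave -2.14 points and 2132 intronic ones -3.37.

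Gene density of the surrounding 1-Mb window separated the isolated CpGs further. The CpGs lay in 1836 windows, whose protein-coding gene starts set the classes: gene-poor windows have at most 4 starts and gene-rich windows at least 12. The 1255 isolated CpGs in gene-poor windows were at 78.1% and 79.3% in WT, 78.7% and 78.6% in hSTAT5B, and 73.3% and 74.1% in hSTAT5BN642H. The 1735 in gene-rich windows were at 73.8% and 75.3%, 74.3% and 74.5%, and 71.3% and 72.3%. hSTAT5BN642H minus WT was therefore -4.95 points in gene-poor and -2.77 in gene-rich windows, with -2.81 for the 1572 CpGs in between. The gene-poor CpGs, which had the higher level in WT and hSTAT5B by 3.99 to 4.42 points, were 2.03 and 1.82 points above the gene-rich ones in hSTAT5BN642H. The groups did not overlap in this contrast, which was -2.25 points for hSTAT5BN642H against the other 4 libraries (exact permutation p = 0.0667). The same contrast of dense CpGs was -0.596 points (exact permutation p = 0.0667).

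In finer classes the difference went from -5.33 points in windows without a gene start (219 CpGs) over -4.76 at 1 to 2 starts, -4.53 at 3 to 5, -2.90 at 6 to 10 and -2.64 at 11 to 20, to -2.45 at 21 or more (746 CpGs). In gene-poor windows, isolated CpGs in gene bodies (586) and between genes (669) differed from WT by -5.46 and -4.51 points; in gene-rich windows these values were -2.30 (1109) and -3.60 (626). GC content went the same way, with -4.13 points where the 250 bp on each side of the CpG held under 40% GC and -2.84 at 50% or more. The 1115 isolated CpGs in soft-masked repeat sequence gave -4.26 points and the 3447 others -3.10. These properties overlap in the genome, and replication timing was not measured.

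**Figure D4:**
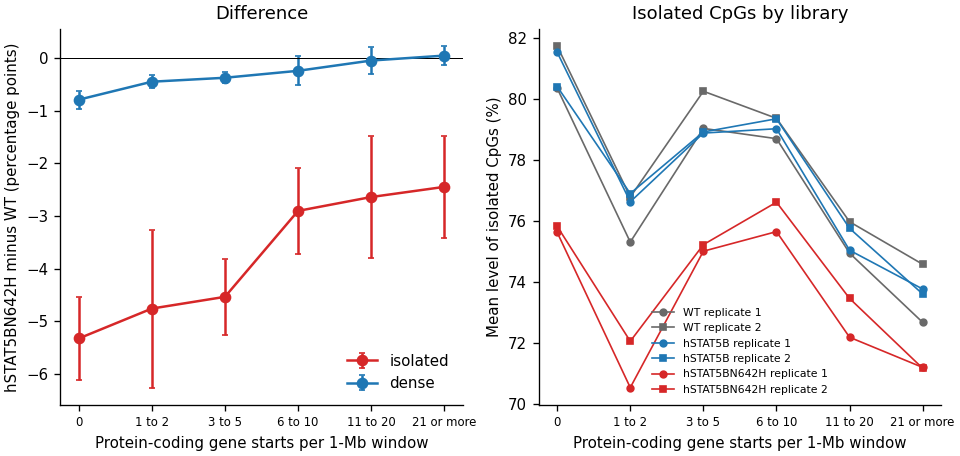
Left, hSTAT5BN642H minus WT (percentage points) of isolated and dense CpGs by the protein-coding gene starts in their 1-Mb window, with bars from the lowest to the highest library pair; right, the mean level (%) of isolated CpGs in each library over the same classes, on an axis that does not start at 0. The isolated difference runs from -5.33 without a gene start to -2.45 at 21 or more, and the hSTAT5BN642H libraries lie below the other 4 in every class.

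On all 19 autosomes both hSTAT5BN642H libraries were below the other 4 in the mean level of isolated CpGs. The difference from WT ran from -2.52 points on chromosome 11 (274 CpGs) to -4.85 on chromosome 7 (282 CpGs). hSTAT5B was below WT on 11 of 19 autosomes, with differences from -0.822 to 1.05 points. For dense CpGs, hSTAT5BN642H minus WT ran from -0.526 to 0.0672 points and the groups were separate on 9 autosomes.

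**Figure D5:**
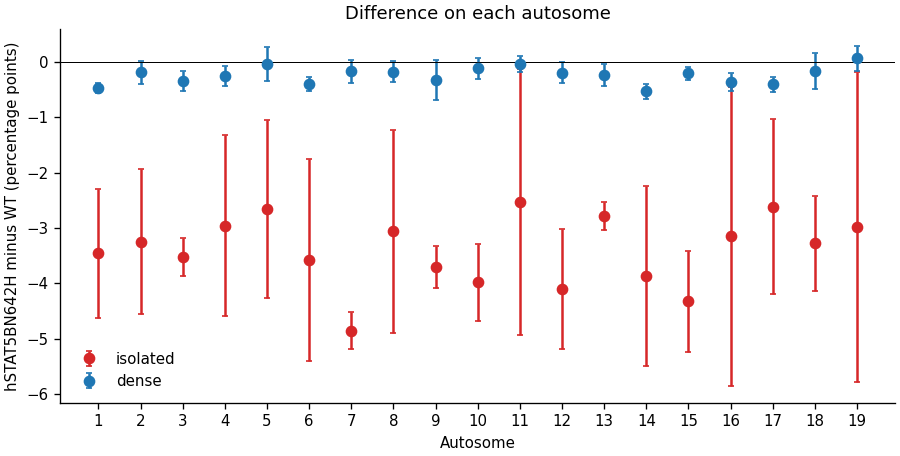
hSTAT5BN642H minus WT (percentage points of mean level) on each autosome for isolated and dense CpGs; points are differences of group means and bars span the 4 library pairs. Isolated CpGs lie between -4.85 and -2.52 points, and dense CpGs between -0.526 and 0.0672.

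At the level of single CpGs the shift was spread over many positions. Both hSTAT5BN642H libraries were below all 4 others at 597 of the 4562 isolated CpGs (13.1%), against 7.91% of all tested CpGs and 6.78% of dense ones. They were above all 4 others at 107 (2.35%), against 2.93% of all tested CpGs. The median difference from WT was -2.12 points, with 2710 CpGs lower, 1539 higher and 313 equal, beside a median of 0 over all tested CpGs, of which 49.3% were lower and 38.2% higher. In gene-poor windows the share below all 4 was 17.4%, in gene-rich windows 11.3%, in gene bodies 12.2% and between genes 14.2%.

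No single isolated CpG passed limma's test. limma on the log2 ratio of methylated to unmethylated reads, 1 added to each, called 0 of 827722 CpGs at an adjusted p under 0.05 in any of the 3 genotype contrasts (0% of all tested). At an unadjusted p under 0.05 it called 445 isolated CpGs (9.75%) in hSTAT5BN642H against WT, beside 6.47% of all tested. Of these, 327 were lower (7.17%) and 118 higher, while 3.39% of all tested and 2.44% of dense CpGs were lower at that level. In hSTAT5B against WT, 295 isolated CpGs (6.47%) were called at that level, beside 5.01% of all tested, and 140 (3.07%) were lower, beside 2.46%. In hSTAT5BN642H against hSTAT5B, 461 (10.1%) were called, beside 6.19% of all tested, and 332 (7.28%) were lower, beside 3.33%. On simulated data of this size limma called 0% of CpGs lowered by 20 or 40 points and 59% of those lowered by 60. The simulated reads varied by counting error only, and only CpGs of high level were lowered, so the shares called can be smaller in real libraries. Fitted to the reads at the same threshold, a quasi-binomial model called 96 isolated CpGs (2.10%) in hSTAT5BN642H against WT, beside 0.749% of all tested. It called 4 (0.0877%) in hSTAT5B against WT, beside 0.0569%, and 68 (1.49%) in hSTAT5BN642H against hSTAT5B, beside 0.461%. The calls at single CpGs therefore depend on the model.

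The CpGs named next were those with 20 or more reads in all libraries (1597 isolated CpGs) at which both hSTAT5BN642H libraries lay below the other 4 (284, or 17.8%) or above them (35, or 2.19%), taken by the size of the difference, so their values are a description. Over all tested CpGs with as many reads, these shares were 10.2% and 3.88%. In the first intron shown, of the antisense transcript 9630028H03Rik, WT had 77.4% and 50.8%, hSTAT5B 54.7% and 56.3%, and hSTAT5BN642H 25% and 31.3%. This CpG lies in a window with 1 gene start, and its WT libraries differed from each other by more than either hSTAT5B library from WT replicate 2. The CpG in Hoxb5os, an antisense transcript of the HoxB cluster 533 bp from Hoxb6, had 71.8% and 88.9% in WT, 73.8% and 58.1% in hSTAT5B, and 49.3% and 42.3% in hSTAT5BN642H.

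In Nr1i2, which encodes the xenobiotic receptor PXR, the level was 65.9% and 81.4% in WT, 67.2% and 82.4% in hSTAT5B, and 33.3% and 55.6% in hSTAT5BN642H. In Mast4, a kinase gene, the other 4 libraries were closest together, with 97.1% and 92.8% in WT and 91.7% and 91.8% in hSTAT5B against 63.0% and 70.6% in hSTAT5BN642H. The 95% Wilson intervals of the hSTAT5BN642H values there were 48.6 to 75.5% (29 of 46 reads) and 57.0 to 81.3% (36 of 51), below the lowest bound of the others, 83.0%. Such intervals cover counting error only, since reads without molecular identifiers are not independent molecules.

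Between genes, the CpG 64512 bp from Tiam1 on chromosome 16 had 85.7% and 58.3% in WT, 76.0% and 81.0% in hSTAT5B, and 52.2% and 23.8% in hSTAT5BN642H. The CpG 1448 bp from Csmd2 on chromosome 4 had 95.1% and 90.9%, 84.8% and 79.5%, and 59.3% and 60%. At the CpG 345 bp from Gh on chromosome 11, the values were 91.4% and 96.2%, 93.3% and 69.4%, and 65.2% and 67.7%. In the last of these, hSTAT5B replicate 2 lay within 2 points of the higher hSTAT5BN642H library.

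Of the 35 CpGs above the other 4 libraries, 2 are described. In Fmnl3, a formin gene of the actin skeleton, WT had 15.4% and 31.0%, hSTAT5B 28.0% and 56.5%, and hSTAT5BN642H 72.3% and 87.0%, the largest positive difference among them. The other, on chromosome 3 and 530954 bp from Ttll7, had 67.6% and 56.5%, 76.0% and 92.3%, and 94.1% and 100%. For these 2 and the 7 described with lower levels, limma's adjusted p was 0.711 to 0.768.

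Of the most deeply read isolated CpGs, chosen by reads alone with 224 or more in every library, 3 are described. The CpG in Slc9a4 (a sodium-proton exchanger) had 83.0% and 84.0% in WT, 82.5% and 85.4% in hSTAT5B, and 81.6% and 81.4% in hSTAT5BN642H. The CpG in an exon of Hoxa9, a developmental transcription factor gene, was at 1.90% to 5.41% in all 6 libraries. In Slc25a13, which encodes a mitochondrial aspartate-glutamate carrier, WT had 98.5% and 97.6%, hSTAT5B 95% and 95.9%, and hSTAT5BN642H 87.5% and 95%.

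Isolated CpGs were thinly spread over genes: 2371 genes held at least 1 in their body and 2004 of these exactly 1. Of the 14 genes with 5 or more, some of which share their CpGs, 12 had a lower mean in hSTAT5BN642H than in WT. The 8 described are the 5 genes with more than 5 and, of 9 tied at 5, the first 3 in alphabetical order. Gm20388, a readthrough gene on chromosome 8, held 18, with 65.4% and 70.3% in WT, 67.0% and 76.0% in hSTAT5B, and 67.1% and 64.0% in hSTAT5BN642H, which overlap. Fgfr2, a fibroblast growth factor receptor gene whose annotated body spans 2961 kb, held 9, with 78.2% and 76.6%, 79.3% and 75.5%, and 66.2% and 70.2%, and hSTAT5BN642H lay below the other libraries. So it did in Gm26804, a lincRNA gene with 5, at 80.2% and 73.5% against 84.6% to 93.4% in the other 4. In Fto, with 6, the hSTAT5BN642H means were 88.1% and 87.6% against 90.3% to 93.7%. Counted by CpG, 6 of the 9 in Fgfr2, all 5 in Gm26804 and only 3 of the 6 in Fto were lower than in WT. In Lrmda (7), Tenm3 (6) and Ccdc7a (5) the differences from WT were -1.84, -4.11 and -2.33 points with overlap, and in Dock9 (5) 0.634.

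Few isolated CpGs lay at genes of T cells, STAT5 signalling or cell division. Of 63 genes in 5 lists, 7 had an isolated CpG in their body or within 10 kb, 1 each, and both hSTAT5BN642H libraries were below all 4 others at 0 of the 7, beside 13.1% of all isolated and 7.91% of all tested CpGs, a number too small to set against these shares. Among 13 T cell identity genes, Cd247 (the CD3 zeta chain) had 1, methylated in 1 of 142 reads over the 6 libraries. Of 15 STAT5 target genes, Il2ra (an IL-2 receptor chain) had 1 CpG methylated in all 138 reads, which allows an unmethylated share of up to 2.17% (3 reads of this total, pooled over the libraries and covering counting error only); Bcl2 (which blocks cell death) had every read methylated in both WT libraries and was at 89.5% and 72.7% in hSTAT5B, and at 88.9% and 80% in hSTAT5BN642H, on 5 to 23 reads; and Ccnd3, a D-type cyclin gene, was at 81.8% and 81.1%, 88.9% and 59.1%, and 86.7% and 91.7%.

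Of 14 cell division genes, Top2a (topoisomerase II alpha) had 1 isolated CpG, at 95.2% to 98.6% in all libraries on 104 to 172 reads. None of the 9 genes of methylation maintenance and removal had any. Of 12 effector and memory genes, Eomes, a T-box factor of memory CD8+ T cells, had 1 nearby CpG at 3.13% and 14.6% in WT, 2.94% and 6.52% in hSTAT5B, and 12.8% and 27.7% in hSTAT5BN642H, and Lef1 had 1 with 0 of 184 reads methylated, which allows a level of up to 1.63% on the same terms.

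Over 1-Mb windows, 225 held 5 or more isolated CpGs, 1336 in all, and 164 of them (72.9%) had a lower mean in hSTAT5BN642H than in WT, with a median of -2.85 points; hSTAT5B was lower in 114 (50.7%), with a median of -0.259. Both hSTAT5BN642H libraries were below all 4 others in 45 of these 225 windows and above them in 5. The same count was not made for windows of dense or all tested CpGs, so these numbers have no share to be set against. limma on these levels called 0 windows in each contrast at an adjusted p under 0.05 (0% of 225), and 20 (8.89%) in hSTAT5BN642H against WT at an unadjusted p under 0.05, 18 of them lower. At that level it called 8 windows (3.56%) in hSTAT5B against WT and 23 (10.2%) in hSTAT5BN642H against hSTAT5B. In simulated windows, whose reads varied by counting error only, it called 36% of those lowered by 10 points and 0% of those lowered by 5. Across the 225 windows, the number of gene starts and the difference from WT were only weakly related (Spearman's rho 0.0980), windows sharing libraries and holding a median of 5 CpGs.

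Of the 7 windows with 10 or more isolated CpGs, 6 had a lower mean in hSTAT5BN642H than in WT. The lowest was chr10:77000001-78000000, with 37 gene starts and 10 CpGs at 80.2% and 77.1% in WT, 66.0% and 66.3% in hSTAT5B, and 61.8% and 61.2% in hSTAT5BN642H, in which hSTAT5B also stood below WT (difference -12.5 points). The gene-poorer window chr8:20000001-21000000, which holds Gm26804 and 6 gene starts, had 15 CpGs at 91.5% and 89.2%, 93.8% and 89.0%, and 82.7% and 82.0%. The windows chr10:117000001-118000000 and chr5:114000001-115000000 gave differences of -6.26 and -1.77 points with overlap, and the only higher mean was in chr8:111000001-112000000, at 2.25 points with overlap.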

How the data were processed

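The authors trimmed the 50-bp reads with Trimmomatic and aligned them to GRCm38 (mm10) with BSMAP in its RRBS mode (tools and build as in the submitters' processing notes, versions not given in the sources used here). The deposited file of each library lists, per CpG, methylated and total read counts as text and a score, the level scaled by the authors. The score was read only to check the read counts, and all levels were computed from the counts. The isolated and dense CpGs, the gene lists and the tests were chosen with earlier results of these data known.

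CpG islands were rebuilt on the soft-masked genome with the UCSC rules (length over 200 bp, GC over 50%, observed over expected CpG over 0.6), giving 16095, and genes came from GENCODE M21. CpGs with 5 or more and under 1000 reads in all 6 libraries were kept, and a mean level is the unweighted mean over CpGs. The minimum favours CpGs deeply read in every library. Means were compared by exact permutation tests over libraries, written in Python 3.11.15 with numpy 2.4.6 and pandas 2.3.3; limma was fitted to all 827722 CpGs, or to windows, over the 3 genotypes together, without a block for the replicate number, with Benjamini-Hochberg adjustment. With 1 read added, the log2 ratio also depends on depth. The analysis was tested on simulated data. Named genes and CpGs followed a rule: the 8 genes with most isolated CpGs (ties in alphabetical order), the 4 deepest CpGs, the largest differences among separate CpGs with 20 or more reads, windows with 10 or more, and 5 gene lists; 2 CpGs that the rule picked are not reported here. Alternatives were other read limits and neighbour distances, pooled reads, no repeats, CpGs 36 to 50 bp from a CCGG, single libraries left out, a quasi-binomial model and, added after seeing the data, no CpGs in TCGA.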

Additional observations from a re-analysis of the deposited data

How the results depend on the processing

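Of 186 values of the 13 mean levels under alternatives, 179 kept their direction and 7 did not; since no permutation test could pass 0.05 at this number of libraries, this says nothing of significance. Some of the 179 could not change direction: a block for the replicate number alters only the p-value of each of the 13. Likewise, leaving out TCGA removes no dense CpG. hSTAT5BN642H minus WT at isolated CpGs stayed between -6.16 (no CpG within 50 bp) and -2.98 points over the other settings and between -3.98 and -2.79 when 1 library was left out. hSTAT5B minus WT, near 0, changed sign to 0.0915 for CpGs 36 to 50 bp from a CCGG and to 0.128 without CpGs in TCGA, and ran from -0.613 to 0.581 when 1 library was left out, above 0 without WT replicate 2 (0.581) or hSTAT5B replicate 1 (0.0953). The dense CpGs turned to 0.0843 points with pooled reads and to 0.140 without soft-masked sequence. The gene body minus intergenic contrast against WT turned to -0.809 with no CpG within 50 bp, where gene bodies gave -6.59 points and intergenic CpGs -5.78. That setting holds 195 isolated CpGs, all in TCGA, so it changes the flanking sequence along with the distance. The causes were not tested.

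The quasi-binomial model called 6203 single CpGs in hSTAT5BN642H against WT, 471 in hSTAT5B against WT and 3815 between the transgenes, where limma called 0. With 10 or more isolated CpGs per window, limma called 2, 1 and 1 of 7 windows in these contrasts, the adjustment and the pooled spread then resting on 7 windows, and with the log2 ratio of pooled reads 3 windows between the transgenes. With the replicate number as a block, the isolated difference from WT was the same -3.39 points (smallest exact permutation p 0.5, its value here). limma with this block called 0 CpGs and 0 windows. Deviations of same-numbered libraries correlated at -0.0321 to 0.00377 over single CpGs, which carry counting error. Within each genotype, replicate 2 had the higher mean level of isolated CpGs. The labels do not say what same-numbered libraries share, and a shared batch was not tested. With 10 or more reads limma still called 0 of 562425 CpGs. The part of depth in these calls was not tested, and 2 libraries per genotype set the smallest permutation p.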

Other observations

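Most isolated CpGs with any read lay in the sequence TCGA, which is also the recognition sequence of the enzyme TaqI, while the study's methods name MspI alone. In WT replicate 1, 262552 isolated CpGs in TCGA had a read, against 18740 isolated CpGs with other flanks. The count in TCGA was 157626 in WT replicate 2, 97414 and 92210 in hSTAT5B, and 91779 and 74453 in hSTAT5BN642H. They were shallow, with a median of 1 or 2 reads where read, so only 270 met the read minimum. How these reads arose was not tested.

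A further 8180 isolated CpGs in TCGA had at least 1 read in all 6 libraries without meeting the minimum, a set chosen after seeing the data. Their mean level was 82.7% and 82.6% in WT, 81.3% and 81.3% in hSTAT5B, and 74.9% and 76.9% in hSTAT5BN642H. hSTAT5BN642H minus WT was -6.73 points, and -8.09 in gene-poor, -5.71 in middle and -6.26 in gene-rich windows. hSTAT5BN642H was below the other 4 libraries by a difference of -6.05 points (exact permutation p = 0.0667, the smallest possible).

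In TCGA, however, CpGs with neighbours were lower too, at -4.63 points with 1 other CpG within 35 bp (5013 CpGs) and -5.43 with 2 or more (4850), and hSTAT5B minus WT was -1.36, -1.48 and -3.12 points with 0, 1 and 2 or more. The median reads per CpG of the 8180 were 9 and 4 in WT, 3 and 3 in hSTAT5B, and 2 and 2 in hSTAT5BN642H, so depth moved with genotype here, and its part in these values was not tested.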
